A study of Homo sapiens with 4 samples.

Results

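MHC class I antigen presentation was examined in U251 cells, an established human glioblastoma (GBM) cell line, after knockdown of PRMT3, a protein arginine methyltransferase. The members were fixed by name as 9 genes of the pathway: HLA-B, HLA-C, HLA-E and HLA-F, which encode heavy chains, B2M, which encodes the light chain, TAP1, TAP2 and TAPBP, which load peptides, and PSMB9, a subunit of the immunoproteasome. Of these 9 genes, 5 were analysed among the 15575 genes of the count table, namely B2M, TAP1, TAP2, TAPBP and PSMB9, each on 1 identifier. The 4 heavy chain genes are not analysed here. The Ctrl group had 2 libraries of U251 cells with the pGreen control vector, and the PRMT3-KD group had 2 libraries of U251 cells with PRMT3 knockdown. Both groups received lentivirus carrying a short hairpin RNA, control or against PRMT3, and the study profiled the cells at 72 h. The hairpin used for these libraries and whether the 2 libraries of a group came from separate cultures are not given in the sources used here, so the p-values measure the spread between these libraries, which may be technical.

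An MHC class I molecule is a heavy chain paired with B2M that shows a short peptide on the cell surface to CD8 T cells. Peptides are cut in the cytosol by the proteasome, carried into the endoplasmic reticulum by the TAP1-TAP2 transporter and fitted to the heavy chain by tapasin, the product of TAPBP. Interferon is known to raise the transcription of these genes through response elements in their promoters, and low class I expression is a known route by which gliomas escape T cells.

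Total counts lay between 24804250 and 29756313 per library. PRMT3 itself was at 19.3 and 19.5 CPM (read counts scaled to a common library size after TMM normalization) in the Ctrl libraries and at 3.03 and 1.58 CPM in the PRMT3-KD libraries, a log2 fold change of -3.08 (SE 0.314, edgeR adjusted p = 0.0177). The PRMT3-KD libraries differed from each other far more than the Ctrl libraries did. Over the 9459 genes at 10 CPM or more on average, the median size of the log2 difference was 0.20 between the PRMT3-KD libraries and 0.039 between the Ctrl libraries. Genes were called when the adjusted p was under 0.05 and the change over 1.5-fold. This held for 10.9% of the 13172 genes tested, 4.97% as higher and 5.97% as lower in PRMT3-KD cells. An unadjusted p under 0.05 was found by edgeR for 4950 of the 13172 genes, in either direction. With Ctrl library 1 or 2 left out, edgeR called 0 genes of all those tested (1842 and 1868 at an unadjusted p under 0.05), since the spread then came from the PRMT3-KD libraries alone, so every count below is also 0 there. Without PRMT3-KD library 1 the number was 3066 and without library 2 it was 2989, against 1441 with all libraries.

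The libraries carried the markers of a glial tumour line. VIM, CD44, NES and SOX2 had means of 5394, 1957, 783 and 171 CPM in Ctrl cells, whereas AQP4 had 0 counts in both Ctrl libraries and CHI3L1 had 0 and 2. Of 15 leukocyte, macrophage and microglial markers, which would mark cells rich in class I molecules, 7 were in the table, and their summed level was 30.3 and 31.8 CPM in Ctrl and 33.1 and 33.9 CPM in PRMT3-KD libraries. Most of that sum was CD68, a lysosomal protein (24.0 to 29.7 CPM), and the pan-leukocyte gene PTPRC had 2 to 7 counts per library. None of the 4 immune markers tested was called by edgeR, with 1 higher and 1 lower at an unadjusted p under 0.05, and DESeq2 and limma-voom also called 0, but 1 was called as lower without PRMT3-KD library 1 and likewise without library 2. The log2 fold changes ran from -0.89 for CD14, a receptor of monocytes, to 0.26 for CD68, and the part of these cells in the results was not tested.

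The promoters of 4 of the 5 members share a sequence feature. Response elements to interferon are known in promoters of this pathway, so the feature is not independent of the choice of members. Each window was the 300 bases around the annotated start of the canonical transcript (250 before and 50 after). In 4 of the 5 members it held the core of an interferon-stimulated response element, GAAANNGAAA on either strand, where N is any base. Other annotated transcripts can start elsewhere, so a match can lie inside the gene interval given below. The same letters were found in 3.29% of the windows of 19862 protein-coding genes. The stretches with the matches are shown for these 4 genes, written 5′ to 3′ on the strand of the gene with the matching bases in capitals. They lie on GRCh37 (hg19) at chr15:45003546-45003611 on the plus strand for B2M, and on the minus strand at chr6:32821575-32821640 for TAP1, chr6:32806540-32806599 for TAP2 and chr6:33281835-33281900 for TAPBP.
B2M: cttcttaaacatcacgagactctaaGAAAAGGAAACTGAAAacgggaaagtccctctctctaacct
TAP1: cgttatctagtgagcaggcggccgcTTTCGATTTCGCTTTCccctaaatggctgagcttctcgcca
TAP2: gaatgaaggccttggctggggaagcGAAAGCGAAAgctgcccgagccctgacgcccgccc
TAPBP: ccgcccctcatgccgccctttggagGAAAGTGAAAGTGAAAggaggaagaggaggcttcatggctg

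B2M, TAP1 and TAPBP each had 2 matches that overlap, so that the capitals span 16 bases, and TAP2 had 1 match of 10 bases. In B2M the matches began 144 bases before the start, in TAP1 134, in TAP2 58 and in TAPBP 20. In TAP1 they read on the strand opposite to the gene. PSMB9 had no match in its own window, but it shares a promoter region with TAP1. The genes run in opposite directions on chromosome 6, and 487 bases separate the starts of their canonical transcripts. That region held the 2 TAP1 matches, the first of which begins 119 bases from the TAP1 start. The interferon gamma activation site, TTCNNNGAA, and a 9-base form of the kappa B site, GGGANTCCC, matched in 0 of the 5 windows. Of all windows, 6.50% and 0.987% matched. Other forms of the kappa B site were not searched, so the 0 does not mean that these windows lack one. The inverted CCAAT box, ATTGG on either strand, matched in 3 of the 5 windows (B2M, TAP1 and PSMB9), against 36.0% of all windows, but the matches of TAP1 and PSMB9 are the same bases of their shared region. The map of motif matches shows where each lies relative to the start. A match is a description of the letters in these windows and not a site of binding.

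**Figure D1:**
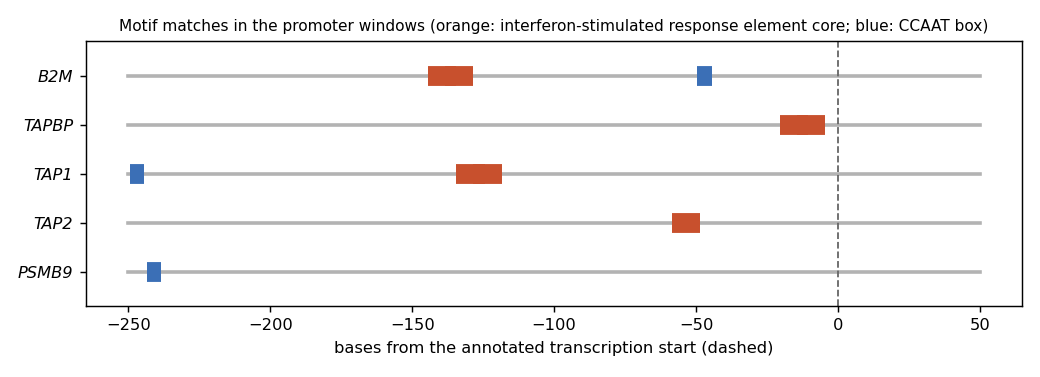
Motif matches in the promoter windows of the 5 members; the x axis gives bases from the annotated transcription start, grey lines mark the window from 250 bases before to 50 after it, orange blocks the interferon-stimulated response element core and blue blocks the CCAAT box. Orange blocks appear in 4 of the 5 genes, nearest to the start in TAPBP and farthest from it in B2M, and there is none in PSMB9.

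After PRMT3 knockdown none of the 5 members was called by edgeR, beside 10.9% of all genes tested, and none was called by DESeq2 or limma-voom. B2M was the exception on the p-value alone, with a rise of 1.30-fold that did not reach the 1.5-fold limit. B2M was the only member at an unadjusted p under 0.05, which 4950 of the 13172 genes tested had by edgeR. The median log2 fold change of the 5 members was 0.05, beside 0.0055 over all genes tested, and the values ran from -0.15 for TAP1 to 0.38 for B2M. In 3 of the 5 members the PRMT3-KD libraries did not overlap the Ctrl libraries (B2M and PSMB9 above, TAP1 below). Over all genes tested, 67.1% had groups that did not overlap, a share close to 3 of 5. In bulk RNA a lower or higher level of RNA per cell cannot be told apart from a different number of cells that express the gene.

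**Figure D2:**
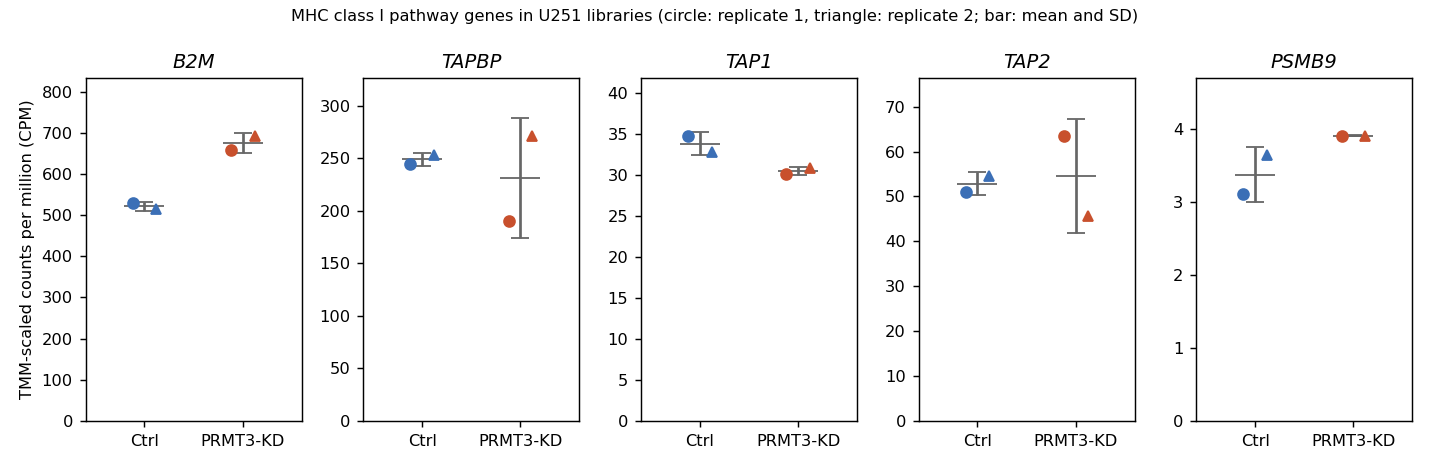
Expression of the 5 members in each library, in TMM-scaled CPM on linear axes from 0, with a panel per gene; circles are replicate 1, triangles replicate 2, and grey bars the mean and SD of 2 libraries. B2M lies higher in both PRMT3-KD libraries, whereas for TAPBP and TAP2 the PRMT3-KD libraries fall on opposite sides of the Ctrl libraries.

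B2M (ENSG00000166710, chromosome 15 from 45003556 to 45011049, 4 exons in the canonical transcript) encodes beta-2 microglobulin, the light chain of every classical class I molecule. It had 529 and 514 CPM in the Ctrl libraries and 659 and 694 CPM in the PRMT3-KD libraries. Both PRMT3-KD libraries were therefore above both Ctrl libraries, and the gap between the groups was larger than the difference within either. The means were 522 ± 10.9 and 676 ± 24.3 CPM (SD, n = 2 each), and the log2 fold change was 0.38 (SE 0.0717, 95% interval 0.18 to 0.57, edgeR adjusted p = 0.0377). An adjusted p under 0.05 with no fold threshold was found for 17.3% of all genes tested. The adjusted p ranged from 0.0139 with limma-voom to 0.0897 with the replicate number as a block. Without Ctrl library 1 or 2 it was 0.467 or 0.522, while the log2 fold change stayed between 0.33 and 0.41 with any 1 library left out.

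The transporter genes lie on chromosome 6 with 6469 bases between them, TAP2 (ENSG00000204267) from 32789610 to 32806516 and TAP1 (ENSG00000168394) from 32812986 to 32821593. Their products form a heterodimer that pumps peptides into the endoplasmic reticulum. TAP1 had 34.8 and 32.8 CPM in Ctrl and 30.1 and 30.8 CPM in PRMT3-KD libraries. Both PRMT3-KD libraries lay slightly under the Ctrl libraries, with a log2 fold change of -0.15 (SE 0.0867, 95% interval -0.38 to 0.08, edgeR adjusted p = 0.277). TAP2 had 51.0 and 54.6 CPM in Ctrl and 63.6 and 45.6 CPM in PRMT3-KD libraries. Library 1 of the knockdown was above both Ctrl libraries and library 2 below them, so the groups overlapped. The log2 fold change of TAP2 was 0.05 (95% interval -0.43 to 0.52, edgeR adjusted p = 0.876), and it was -0.21 without PRMT3-KD library 1 and -0.0013 without Ctrl library 1.

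The ratio of TAP1 to TAP2 counts within a library was 0.682 and 0.601 in Ctrl and 0.474 and 0.676 in PRMT3-KD. The means of 0.641 ± 0.0570 and 0.575 ± 0.143 (SD, n = 2 each) differed by less than the spread between the PRMT3-KD libraries (exact two-sided permutation test, p = 0.667, where 2 libraries against 2 cannot go below 0.333). Without PRMT3-KD library 1 the difference turned to 0.0342 in the other direction. Exons of TAP1 share 14.2% of their bases with PSMB8-AS1 on the other strand, and those of TAP2 share 19.5% with a readthrough gene on the same strand (ENSG00000250264), so a part of these counts could belong to the overlapping genes.

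TAPBP (ENSG00000231925, chromosome 6 from 33267471 to 33282061) encodes tapasin, the chaperone that holds empty class I molecules at the transporter. It had 245 and 253 CPM in Ctrl and 191 and 272 CPM in PRMT3-KD libraries. Here library 1 was the lower and library 2 the higher, the reverse of TAP2. The log2 fold change was -0.11 (SE 0.184, 95% interval -0.60 to 0.38, edgeR adjusted p = 0.709), and it turned to 0.13 without PRMT3-KD library 1. The log2 difference between the PRMT3-KD libraries, library 2 over library 1, was 0.51 for TAPBP and -0.48 for TAP2, both larger than the median size of 0.20 over genes at 10 CPM or more on average. It was 0.07 for B2M and 0.03 for TAP1. Of the exon bases of TAPBP, 21.0% overlap a gene on the other strand (ENSG00000289100).

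PSMB9 (ENSG00000240065, chromosome 6 from 32811913 to 32827628) encodes LMP2, a catalytic subunit that replaces PSMB6 when the immunoproteasome is formed. That interval spans all annotated transcripts, and the canonical one starts at 32821969. PSMB9 was the least abundant member, with 3.10 and 3.64 CPM in Ctrl and 3.90 and 3.91 CPM in PRMT3-KD libraries, from 86 to 111 counts per library. The PRMT3-KD values were above both Ctrl values, but the Ctrl libraries differed by 0.23 on the log2 scale, close to the 0.21 that counting error alone gives as 1 SD. The log2 fold change was 0.21 (SE 0.190, 95% interval -0.30 to 0.72, edgeR adjusted p = 0.470), an interval that includes a rise of 1.5-fold. Of its exon bases, 5.21% overlap PSMB8-AS1 on the same strand and 4.16% overlap PSMB8 on the other.

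Expression was compared between the members per kilobase of exon, as CPM divided by the length of all annotated exons. In Ctrl cells B2M was the highest at 167 ± 3.50, followed by TAPBP at 37.5 ± 0.940, TAP1 at 7.14 ± 0.293, TAP2 at 5.10 ± 0.244 and PSMB9 at 1.01 ± 0.113 (CPM per kilobase, mean ± SD, n = 2). In PRMT3-KD cells the order was the same, at 217 ± 7.79, 34.8 ± 8.63, 6.43 ± 0.103, 5.27 ± 1.23 and 1.17 ± 0.00223. The libraries of the neighbours TAP1 and TAP2 did not overlap in either group, but in PRMT3-KD the gap was narrow, with TAP1 at 6.36 and 6.50 and TAP2 at 6.14 and 4.40 CPM per kilobase, and the means differed by less than the SD of TAP2. Among all genes tested, the Ctrl level of B2M in CPM was at the 98.2 percentile and that of PSMB9 at the 16.7 percentile.

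Of 25 other genes of peptide supply and loading, all of which were tested, 0 were called as higher and 3 as lower by edgeR. Over all genes tested, 4.97% were called as higher and 5.97% as lower. The median log2 fold change of the 25 genes was -0.04. At an unadjusted p under 0.05, 1 of the 25 genes was higher and 4 were lower, beside 4950 of the 13172 genes tested in either direction. DESeq2 and limma-voom also called 0 as higher and 3 as lower, and without PRMT3-KD library 1 the number called as lower was 5. The 3 genes called are SAR1B, POMP and BCAP31. SAR1B, a GTPase of the vesicle coat that carries cargo out of the endoplasmic reticulum, had 61.1 and 54.2 CPM in Ctrl and 34.6 and 30.2 CPM in PRMT3-KD libraries, a log2 fold change of -0.83 (edgeR adjusted p = 0.0228). POMP, an assembly factor of the proteasome, fell by 0.74 in log2 fold change (edgeR adjusted p = 0.0192) from 62.8 and 61.4 to 38.7 and 35.7 CPM. BCAP31, an endoplasmic reticulum protein that helps class I molecules leave for the Golgi, fell by 0.70 in log2 fold change (edgeR adjusted p = 0.0180) from 293 and 296 to 187 and 175 CPM.

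**Figure D3:**
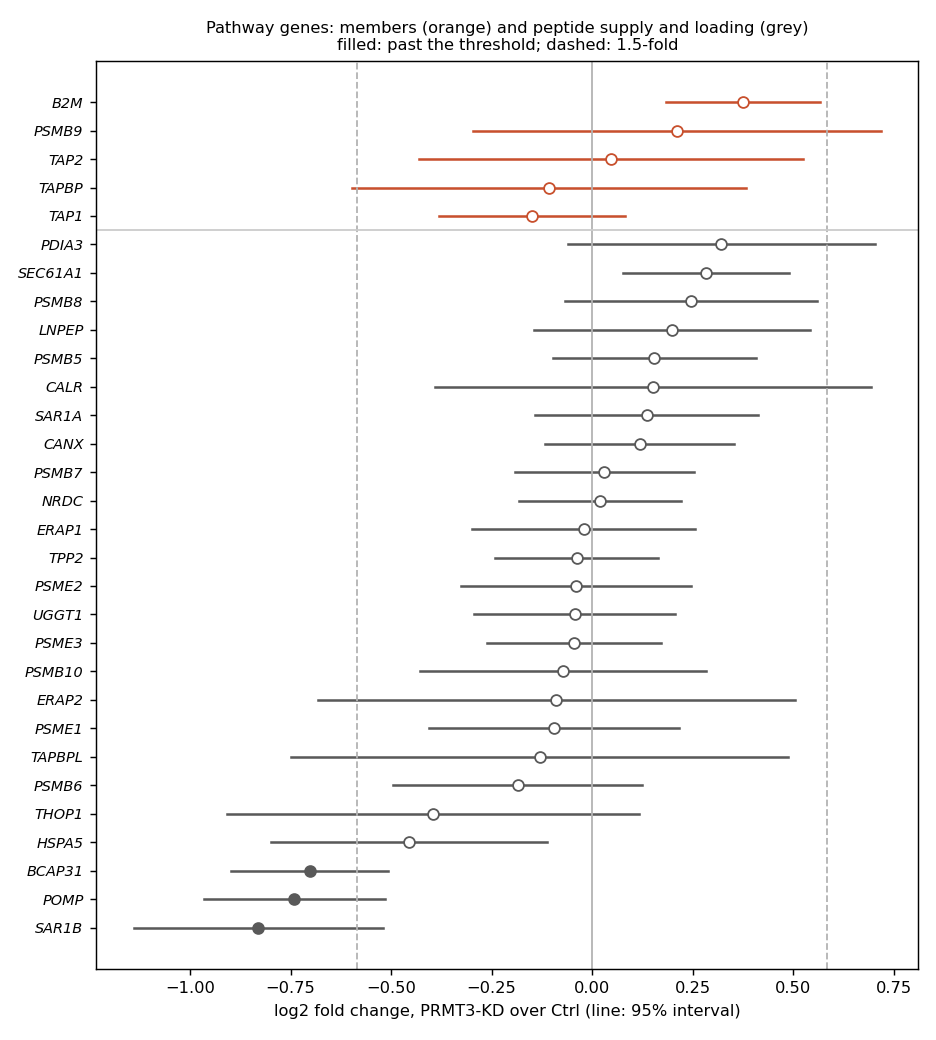
Log2 fold change of PRMT3-KD over Ctrl for the 5 members (orange) and 25 genes of peptide supply and loading (grey), with unadjusted 95% intervals as lines, filled points past the threshold and dashed lines at 1.5-fold. SAR1B, POMP and BCAP31 are the filled points, all on the left. Among the members, the intervals of B2M, TAP1 and TAP2 stay inside the dashed lines, and those of TAPBP and PSMB9 cross them.

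Among the immunoproteasome subunits beside PSMB9, PSMB8 had a log2 fold change of 0.25 (edgeR adjusted p = 0.207) and PSMB10 of -0.07 (edgeR adjusted p = 0.728). Each immune subunit was set against the constitutive subunit whose place it takes, a comparison chosen after the data were examined. The ratio of PSMB9 to PSMB6 counts was 0.0249 and 0.0290 in Ctrl and 0.0323 and 0.0394 in PRMT3-KD libraries. It was higher in both (exact two-sided permutation test, p = 0.333, the smallest this design allows). PSMB6 itself had 125 and 125 CPM in Ctrl and 121 and 99.1 CPM in PRMT3-KD libraries, lower in both. Its log2 fold change was -0.18 (edgeR adjusted p = 0.313), so the ratio also reflects PSMB6. The ratio of PSMB8 to PSMB5 was 0.199 and 0.234 in Ctrl and 0.207 and 0.256 in PRMT3-KD libraries, with overlap. That of PSMB10 to PSMB7 was 0.173 and 0.175 in Ctrl and 0.170 and 0.154 in PRMT3-KD libraries, lower in both (exact two-sided permutation test, p = 0.333, again the smallest possible). The immune subunits were minor beside the constitutive ones in both groups, on counts that were not divided by length. The peptide-loading chaperones CALR and PDIA3 stood at 0.15 and 0.32 on the log2 scale (edgeR adjusted p = 0.628 and 0.184), and the trimming peptidases ERAP1 and ERAP2 of -0.02 and -0.09 (edgeR adjusted p = 0.906 and 0.803).

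Of 25 transcription factors and chromatin regulators known to act on class I promoters, 24 were tested. By edgeR 2 were called as higher and 0 as lower, beside 4.97% and 5.97% of all genes tested. The median log2 fold change of the 24 was 0.05. At an unadjusted p under 0.05, 2 of the 24 were higher and 4 lower, beside 4950 of the 13172 genes tested in either direction. DESeq2 and limma-voom each called 1 as lower, and 2 were called as lower without PRMT3-KD library 1. RELA, a subunit of NF-kappa B, had an adjusted p of 0.0321 (edgeR) with a log2 fold change of -0.50, under the 1.5-fold limit. IRF9, the DNA-binding part of the complex that reads interferon-stimulated response elements, rose by 0.85 (edgeR adjusted p = 0.0429) from 11.7 and 10.9 to 23.3 and 17.4 CPM. STAT3, a signal transducer of cytokine receptors, rose by 0.76 (edgeR adjusted p = 0.0201). NLRC5, the coactivator that is specific to class I genes, had 12.9 and 14.6 CPM in Ctrl and 9.64 and 16.9 CPM in PRMT3-KD libraries. The knockdown values of NLRC5 lay on either side of the Ctrl values, with a log2 fold change of -0.05 (edgeR adjusted p = 0.925). IRF1, a transcription factor induced by interferon gamma, stood at 0.12 on the log2 scale (edgeR adjusted p = 0.722), and EZH2, which represses class I genes in some tumours, at -0.67 (edgeR adjusted p = 0.0638).

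Genes induced by interferon were set beside the members, since 4 of these share the response element. Of 28 windows of type I interferon markers, 19 held its core. Of 26 such genes tested, 12 were called as higher and 0 as lower, with a median log2 fold change of 0.89. Over all genes tested, 4.97% were called as higher and 5.97% as lower. At an unadjusted p under 0.05, 16 of the 26 were higher and 0 lower by edgeR, beside 4950 of the 13172 genes tested in either direction. DESeq2 and limma-voom called 0 of the 26 as lower. The log2 fold change was above 0 in 23 of the 26 and below 0 in 3, OAS3, IFI44 and STAT2 (-0.38, -0.12 and -0.06). Some markers were high in PRMT3-KD library 1 only. IFI44L had 71 and 63 counts in Ctrl and 229 and 63 in PRMT3-KD, and RSAD2, not tested, had 1 and 2, then 76 and 1. The median of the type I markers tested was 0.74 without PRMT3-KD library 1 and 1.04 without library 2. The 12 genes called are IRF9, IFIT1, IFIT2, IFIT3, ISG15, OAS2, IFI6, IFITM1, BST2, DDX58, IFIH1 and TRIM21, and they ranged from 0.65 for IFIH1 to 1.95 for OAS2. IFIT2, an inhibitor of viral translation, rose from 4.58 and 4.87 to 14.0 and 13.0 CPM and BST2, a protein that tethers virus particles, from 16.1 and 17.3 to 48.6 and 39.0 CPM, log2 fold changes of 1.51 and 1.39 (edgeR adjusted p = 0.0154 and 0.0178). The number called as higher was 8 with library totals as the scaling, 15 with DESeq2, and 19 without PRMT3-KD library 2, and the number called as lower was 2 without PRMT3-KD library 1 and 1 without library 2. Of 17 interferon gamma markers tested, 2 were called as higher (IFI30 and GBP3), with a median of 0.44, and the number was 4 with DESeq2, 6 without PRMT3-KD library 1 and 4 without library 2. The median of these 17 was 0.25 without PRMT3-KD library 1. Over all genes, 8.06% of the 372 genes tested with the response element core in the window were called as higher, against 4.99% of the 12385 without it. The 372 genes include 4 members and the tested interferon markers with the core, so this share is not separate from the counts above. The shares called as lower were 6.45% and 5.99%, and the median log2 fold changes were 0.05 and 0.0083. B2M, TAP1, TAP2 and TAPBP, the members with the core, had 0.38, -0.15, 0.05 and -0.11. The difference between the members and the interferon markers was not tested.

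**Figure D4:**
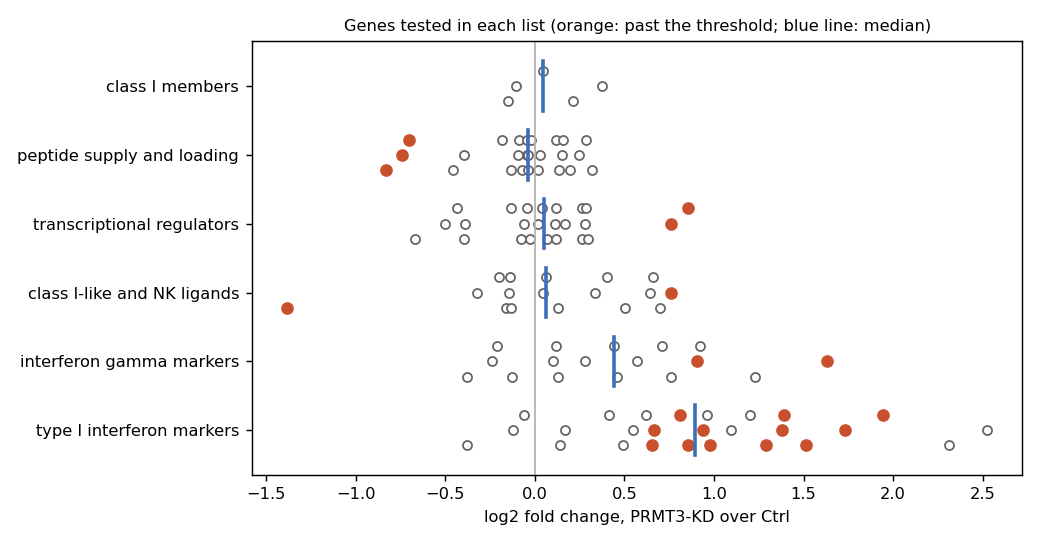
Log2 fold change of PRMT3-KD over Ctrl for each gene tested in 6 groups of genes, with a point per gene, orange points past the threshold and a blue line at the median. The class I members lie between -0.15 and 0.38 with no orange point, and the type I interferon markers have 12 orange points and a median of 0.89.

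A list of class I-like molecules and ligands of natural killer cell receptors also held CD274, PDCD1LG2 and CD47, which bind other immune receptors. Its 17 genes tested had a median log2 fold change of 0.06. Of these 17, 15 were not called by edgeR, 1 was called as higher and 1 as lower. These numbers are close to the 4.97% of all genes tested that were called as higher and the 5.97% called as lower. HFE, a class I-like protein of iron metabolism that also pairs with B2M, fell by 1.38 in log2 fold change (SE 0.113, edgeR adjusted p = 0.0142), from 20.8 and 19.6 CPM in Ctrl to 7.48 and 7.99 CPM in PRMT3-KD libraries. Both knockdown libraries were thus under the Ctrl libraries by more than 2-fold. NECTIN2, a ligand of the receptors DNAM1 and TIGIT, rose by 0.76 (SE 0.0976, edgeR adjusted p = 0.0207), from 112 and 115 to 179 and 206 CPM. MICA, a stress-induced ligand of the receptor NKG2D, had 71.8 and 75.6 CPM in Ctrl and 137 and 93.1 CPM in PRMT3-KD libraries, higher in both, with a log2 fold change of 0.64 (edgeR adjusted p = 0.0950). CD274, which encodes the checkpoint ligand PD-L1, had a log2 fold change of 0.13 (edgeR adjusted p = 0.276). The number called as higher in this group was 2 with DESeq2 and 4 without PRMT3-KD library 1, and the number called as lower was 2 without PRMT3-KD library 2. MHC class II chains are not analysed here.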

How the data were processed

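RNA-seq of 2 Ctrl and 2 PRMT3-KD libraries of U251 cells was used. Per the study's methods, reads were aligned to hg19 with TopHat and gene counts came from Cufflinks, and the submitters' processing notes also name CASAVA and DESeq2. Versions, the annotation and the strand setting are not given in the sources used here. The authors deposited unnormalized whole-number counts. Of 15576 entries, 1 duplicate was removed. Precision is lowest where a gene drew few counts.

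Differential expression used edgeR 4.0.16 under R 4.3.3 (filterByExpr with minimum count 10 and minimum total 15, TMM, glmQLFit and glmQLFTest), with Benjamini-Hochberg adjustment over 13172 genes. Standard errors were derived from the F statistic. Alternatives were DESeq2 1.42.0, limma-voom with group weights (limma 3.58.1), other scalings and filters, the replicate number as a block and each library left out. Positions, exon lengths and promoter windows came from GENCODE 44 lifted to GRCh37, which matched 15560 of the 15575 identifiers, read with Python 3.11.15, pandas 2.3.3 and pysam 0.24.0.

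The members, lists and tests were chosen with earlier results of these data known. Named genes were all members analysed, the genes called in each list or otherwise its extremes, and the 5 genes nearest in profile. Other genes named were chosen after their values were seen. Ratios of heavy chains to B2M were planned and are not reported here.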

Additional observations from a re-analysis of the deposited data

How the results depend on the processing

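With 2 libraries per group, small changes and genes with few counts were resolved least. Under another test, scaling or filter no member was called. Without a fold threshold B2M was called as higher (1 member, log2 fold change 0.38), 2278 genes were called in all and 1 regulator as lower. Matched by replicate number, the within-group differences had a correlation of 0.0197 over 13172 genes, with 2 pairs. The Ctrl libraries differed little from each other, so this value cannot show whether the replicates were paired. With the replicate block 1464 genes were called in all, 1 regulator and 2 glial markers as lower and 4 interferon gamma markers as higher, B2M had a log2 fold change of 0.37 with an adjusted p of 0.0897 (edgeR), and PRMT3 had -3.11. DESeq2 and limma-voom each called 1 regulator and 3 glial markers as lower, and 2 class I-like genes and 4 interferon gamma markers as higher. With library totals only, 1 regulator was called as higher and 0 endothelial markers as lower. Per kilobase of the longest transcript in place of all exons, Ctrl levels were 224 for B2M, 60.2 for TAPBP, 12.1 for TAP1, 8.53 for TAP2 and 1.26 for PSMB9, in the same order. The causes of these shifts were not tested.

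When single libraries were dropped, the lone library of a group is assumed to vary like the others. All genes called then ranged from 0 to 3066, PRMT3 from -3.61 to -2.68 (adjusted p 0.0764 without Ctrl library 1 and 0.0604 without Ctrl library 2, edgeR), and the TAP1 to TAP2 difference from -0.168 to 0.0342. TAP2 ranged from -0.21 to 0.26 and TAPBP from -0.39 to 0.13. Numbers called ranged from 0 to 5 for peptide supply as lower, 0 to 2 for regulators as higher and as lower, 0 to 4 for class I-like genes as higher and 0 to 2 as lower, 0 to 1 for class II genes as higher, 0 to 6 for interferon gamma markers as higher and 0 to 1 as lower, 0 to 19 for type I markers as higher and 0 to 2 as lower, 0 to 4 for glial markers as lower, 0 to 1 for immune markers as lower, and 0 to 1 for endothelial markers as higher and 0 to 2 as lower.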

Other observations

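Among markers of the cell line itself, 10 of 12 glial and glioblastoma genes were tested. Of these, 1 was called as lower, beside 5.97% of all genes tested. SOX9, a transcription factor of glial precursors, went from 244 and 244 CPM in Ctrl to 146 and 164 CPM in PRMT3-KD libraries, a log2 fold change of -0.65 (edgeR adjusted p = 0.0215). GFAP, the astrocyte filament protein, went from 363 and 392 to 32 and 153 counts (log2 fold change -2.03, edgeR adjusted p = 0.0958). Of 3 endothelial markers tested, KDR, the receptor of VEGF, was called as lower at -0.86 (edgeR adjusted p = 0.0428). CDH5, a junction protein of endothelial cells, had 140 and 146 counts in Ctrl and 129 and 722 in PRMT3-KD, so that its log2 fold change of 1.56 (edgeR adjusted p = 0.221) came from PRMT3-KD library 2, and 1 endothelial marker was called as higher without library 1. VWF, a clotting protein, overlapped between the groups. IFI30, a thiol reductase of class II antigen processing that is also among the interferon gamma markers, was the 1 gene tested of the class II list and rose by 1.63 (edgeR adjusted p = 0.0235), from 75 and 80 to 259 and 206 counts.

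Of 9455 other genes at 10 CPM or more on average, the genes whose log2 CPM over the 4 libraries, centred on their mean, lay nearest to the mean profile of the 5 members were DNM1L, DGKQ, EAF1, SDE2 and ZNF394, with root mean square distances of 0.0023 to 0.0084. The mean profile of the members ran from -0.06 in Ctrl library 1 to 0.05 in PRMT3-KD library 2, so these are genes that moved little in any library. That mean averages members with opposed profiles. The log2 difference of PRMT3-KD library 2 over library 1 was 0.51 for TAPBP and -0.48 for TAP2. For B2M, TAP1 and PSMB9 it was 0.07, 0.03 and 0.0039.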
